A study of Mus musculus with 4 samples.

Results

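The secreted inhibitors of Wnt signaling *Dkk1*, *Dkk2*, *Dkk3*, *Sfrp1*, *Sfrp2*, *Frzb*, *Wif1* and *Notum* and the Wnt target genes *Axin2* and *Lef1* were followed through the cell populations of the fetal mouse penis. These 10 genes were taken by symbol from the 32287 features of the count matrices, and they were chosen by their pattern in these data, the levels in DTA+ against DTA- cells by population having been seen before. Genotype differences of the 10 genes are therefore given below as a description. Each comes with the level in every library and the standard error of the fitted difference, and without its p-value. Which pairs passed a threshold, and in which alternative runs, is part of that description and gives no independent support.

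The study made 4 libraries of male genitalia at embryonic day (E) 16.5, the time of urethra closure, with the 10x Genomics 3′ kit, which counts unique molecular identifiers (UMIs) per gene and cell. The 2 control libraries (DTA-) came from *Nr5a1-Cre* +/+; *RosaDTA* +/f embryos, labelled WT, and the 2 ablated libraries (DTA+) from *Nr5a1-Cre* Tg/+; *RosaDTA* +/f embryos, so both genotypes carried the floxed diphtheria toxin allele. The study's methods also list a *Rosa-LSL-tdTomato* +/f reporter in the ablated line, and *tdTomato* gave 0 UMIs in both DTA- libraries and 2485 and 2343 in the DTA+ libraries. *Nr5a1-Cre* is active in the testis and adrenal as well as in an extragenital cell population that enters the penis. The study describes adrenals that were lost and testes that were reduced in DTA+ embryos. In a separate experiment it gave testosterone to pregnant dams, and most ablated males still had severe hypospadias. It names loss of the lineage cells as the major cause of that phenotype, and lost androgens as a possible part. No such supplement is described for these libraries. Loss of the penile cells and loss of hormone sources therefore cannot be told apart in this comparison. The sources used here do not say whether a library held 1 embryo or a pool. The standard errors below come from a fitted dispersion that draws on other genes as well as on the spread between these libraries.

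Wnt ligands bind Frizzled receptors and LRP5 or LRP6 at the cell surface and stabilize β-catenin, which then acts on transcription with TCF and LEF factors. DKK1 and DKK2 bind LRP5 and LRP6, whereas the secreted Frizzled-related proteins (SFRP1, SFRP2 and FRZB) and WIF1 bind the Wnt ligands themselves, and NOTUM removes the lipid that Wnt ligands need for receptor binding. *Axin2* is a widely used target gene that encodes a negative regulator of the pathway, *Lef1* is both a target and a nuclear effector, and Wnt signaling from mesenchyme and epithelium is needed for outgrowth of the genital tubercle.

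Promoter sequence is shown for *Dkk2*, the gene most often higher in DTA+ cells, for *Dkk1*, which carried the TCF/LEF letters in a pair of places, and for *Axin2*, the canonical target. Each window holds the 250 bases before the RefSeq start of transcription (GRCm38.p6). Capitals mark the TCF/LEF core CTTTGA or its reverse complement TCAAAG, and the letters AGAACA or TGTTCT, an element of steroid receptor sites. The windows lie at chr3:132085042-132085291 (plus strand), chr19:30549497-30549746 (minus strand) and chr11:108920099-108920348 (plus strand).
Dkk2: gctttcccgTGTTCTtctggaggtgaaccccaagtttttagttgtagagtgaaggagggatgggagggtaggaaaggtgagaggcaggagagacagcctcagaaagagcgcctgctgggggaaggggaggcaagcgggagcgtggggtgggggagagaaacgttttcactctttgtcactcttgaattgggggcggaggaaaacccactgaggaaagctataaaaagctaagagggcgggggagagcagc
Dkk1: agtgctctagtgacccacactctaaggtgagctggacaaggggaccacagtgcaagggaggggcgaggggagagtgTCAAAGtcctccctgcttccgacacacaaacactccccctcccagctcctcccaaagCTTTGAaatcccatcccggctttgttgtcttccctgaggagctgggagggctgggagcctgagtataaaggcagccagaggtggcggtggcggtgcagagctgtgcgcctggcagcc
Axin2: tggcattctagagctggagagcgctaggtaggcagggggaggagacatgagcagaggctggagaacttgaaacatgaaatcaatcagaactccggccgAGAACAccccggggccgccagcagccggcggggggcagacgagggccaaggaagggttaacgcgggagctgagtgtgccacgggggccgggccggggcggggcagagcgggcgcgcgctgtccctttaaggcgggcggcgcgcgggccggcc

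Windows were found for 7 of the 10 genes (*Dkk1*, *Dkk2*, *Sfrp2*, *Frzb*, *Wif1*, *Axin2* and *Lef1*), in 10 entries. The TCF/LEF letters were in the windows of *Dkk1*, *Frzb* and *Lef1* (3 of the 10 entries) and in 13.8% of all 32851 mouse windows of that length. The steroid receptor letters were in those of *Axin2*, *Dkk2* and *Lef1* (4 of the 10 entries) and in 16.1% of all windows. In the *Dkk1* window the TCF/LEF letters began at -174 and -117 from the start, and in the *Dkk2* window TGTTCT began at -241. In the files' build (mm10, GRCm38) *Dkk2* spans chr3:132085292-132180304 on the plus strand, *Sfrp1* chr8:23411502-23449632 on the plus strand, *Wif1* chr10:121033960-121100650 on the plus strand and *Lef1* chr3:131110471-131224356 on the plus strand.

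Of 47040 barcodes, 31132 cells passed the study's limits on UMIs, mitochondrial RNA and hemoglobin RNA, 6573 to 8810 per library. Barcodes at or above the upper limit of 7500 UMIs made up 21.4% of DTA- replicate 1 and 9.98% to 11.2% of the other libraries. Clustering without the 10 genes and 81 further Wnt pathway genes gave 26 clusters, of which 21 were named from markers, with the ending "-like", and 5 were left as numbered clusters with 9437 cells. The clusters changed in part between runs that differed only in numerical settings, so counts of calls are also given for another random seed. Subdermal prepuce-like cells (255 and 834 cells in DTA-, 21 and 10 in DTA+) and smooth muscle-like cells (126 and 188 against 34 and 12) had too few DTA+ cells to test. That left 13 named populations and the 5 numbered clusters, led by *Sostdc1* and *Wnt16* (cluster 0), *Thbd* and *Ptgis* (cluster 4), *Hand2os1*, *Dsc3* and *Hand2* (cluster 5), *Coch*, *Meox2* and *Wif1* (cluster 6) and *Kera* (cluster 14). Any 2 libraries shared 31 to 48 barcodes.

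In DTA- libraries the DKK genes, whose products include the LRP-binding antagonists, had different leading populations in the mesenchyme. Levels are UMIs scaled to the total of the population and to edgeR's TMM factor for the library (counts per 1e+06 UMIs, CPM). Where a single cluster of a named population is given, its levels are scaled to the total only. Pooled and single-cluster levels are therefore not on quite the same scale. The order of populations is a description because the same cells were clustered. *Dkk2* was highest in distal glans-like cells (216 and 254 CPM in the 2 DTA- libraries) and next in cluster 5 (220.5 and 146 CPM), which overlapped, and was 7.28 and 5.38 CPM in general prepuce-like cells. *Dkk1* was highest in distal glans-like (87.2 and 42.8 CPM), general prepuce-like (68.7 and 43.8 CPM) and cluster 6 cells (68.7 and 29.6 CPM), whose ranges overlapped. *Dkk3*, a divergent member of the family, led in periurethra-like cells (54.8 and 69.96 CPM), just above cluster 0 (54.2 and 42.3 CPM), which overlapped with osteogenic-like cells (50.4 and 36.5 CPM).

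The Frizzled-related genes did not share these places. *Sfrp1* was highest in glia-like cells (74.3 and 89.7 CPM), then in cluster 6 (68.2 and 62.5 CPM) and distal glans-like cells (50.3 and 55.7 CPM), without overlap between neighbours in that order. *Sfrp2* was highest in periurethra-like cells (1003 and 1139 CPM) and cluster 4 (886 and 1125 CPM), which overlapped. *Frzb* led in periurethra-like cells (109 and 96.2 CPM), above osteogenic-like cells (74.7 and 60.3 CPM).

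*Wif1* was highest in cluster 6 (506 and 592 CPM), of which it is a leading gene, and next in chondrogenic-like cells (248 and 353 CPM). *Notum* was highest in cluster 5, at 108 and 51.6 CPM, and the next population, osteogenic-like, had 40.5 and 22.4 CPM. The targets were spread more widely. *Axin2* was highest in glia-like cells (112 and 131 CPM) and cluster 0 (114 and 119 CPM), which overlapped, and *Lef1* in chondrogenic-like (70.1 and 89.2 CPM) and glia-like cells (82.6 and 62.1 CPM), which also overlapped. In the small mast cell-like and macrophage-like populations *Sfrp1*, *Frzb* and *Notum* were not detectable at this depth in either DTA- library.

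**Figure D1:**
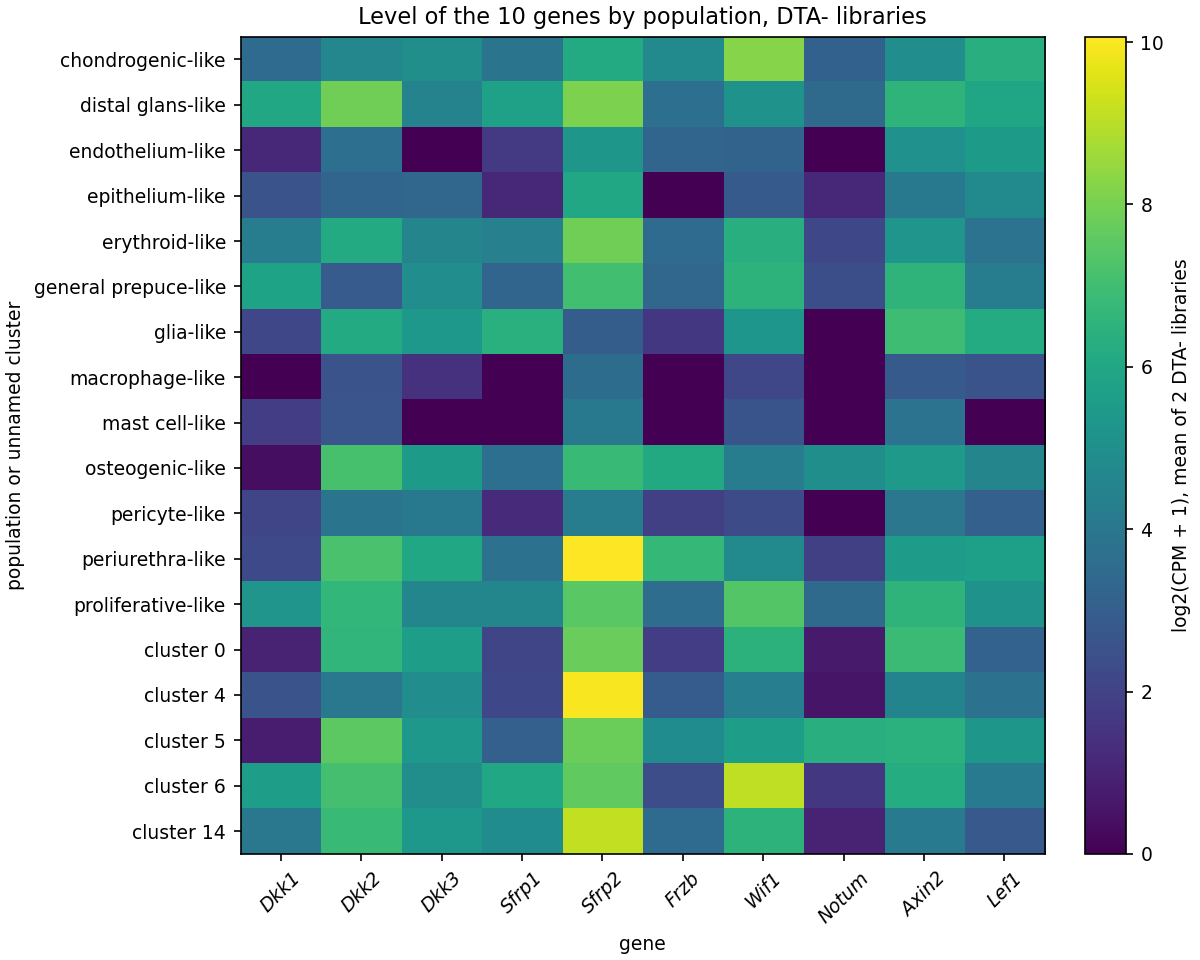
Level of the 10 genes (columns) in the 18 populations tested (rows), as log2(CPM + 1) of the mean of the 2 DTA- libraries; colors are to be compared down a column. *Notum* stood out in cluster 5, *Wif1* in cluster 6 and chondrogenic-like cells, and *Sfrp2* in periurethra-like cells and cluster 4.

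For each gene the 3 genes of most similar pattern over the 18 populations of DTA- libraries were listed, by Pearson's r of log2(CPM + 10) among 10327 genes. The points share libraries and cells, so r is a description. *Axin2* was most like *Zbtb1* (r = 0.887), *Nkd1* (r = 0.874), which is itself a Wnt feedback gene, and *Vamp2*. *Dkk2* was most like *Rimklb* (r = 0.873), *Epha7* and *Zbtb20*. *Frzb* was most like *Mgat4c* (r = 0.889), the forkhead gene *Foxf1* and its neighbour *Fendrr*, and *Notum* like *Gm43376* (r = 0.932), *Hand2os1* and *Sp9*. The closest match was *Dkk3* with *Sesn3* (r = 0.952). Among the 10 genes themselves the closest pair was *Dkk2* and *Dkk3* (r = 0.7).

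The genotypes were then compared in each population, on UMIs summed per library, to ask which inhibitors and targets differed when the *Nr5a1*-lineage cells were ablated. *Dkk2* was higher in DTA+ cells in 7 populations, *Dkk3* in 5, *Sfrp1* in 3, *Wif1* in 3 and *Notum* and *Axin2* in 1 each, whereas *Dkk1*, *Sfrp2*, *Wif1* and *Lef1* were each lower in 1. Of the 180 gene and population pairs, 116 had enough UMIs to be tested, and 24 of these (20 higher and 4 lower in DTA+) were past the threshold of an adjusted p of 0.05 in edgeR. With another clustering seed the count was 22, and at a clustering resolution of 1.2 it was 15. The pairs tested and the share of all features called in those runs are not given, so nothing is read from the change. Over all 147664 pairs of a feature and a population, 3.44% were past the threshold (1.72% higher and 1.72% lower). Because the genes were chosen by this contrast, nothing is read from that gap. The genotypes did not overlap in 73 of the 116 pairs, against 44.5% of all pairs. That share counts both directions, and nothing is read from the counts per gene below either. The median log2 fold change of the 116 pairs was 0.29, and the median over all features lay between -0.02 and 0.01 in every population. Below, levels are given for both DTA- libraries against both DTA+ libraries, replicate 1 first, and the value with its SE that follows in parentheses is the fitted log2 fold change of DTA+ over DTA-.

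**Figure D2:**
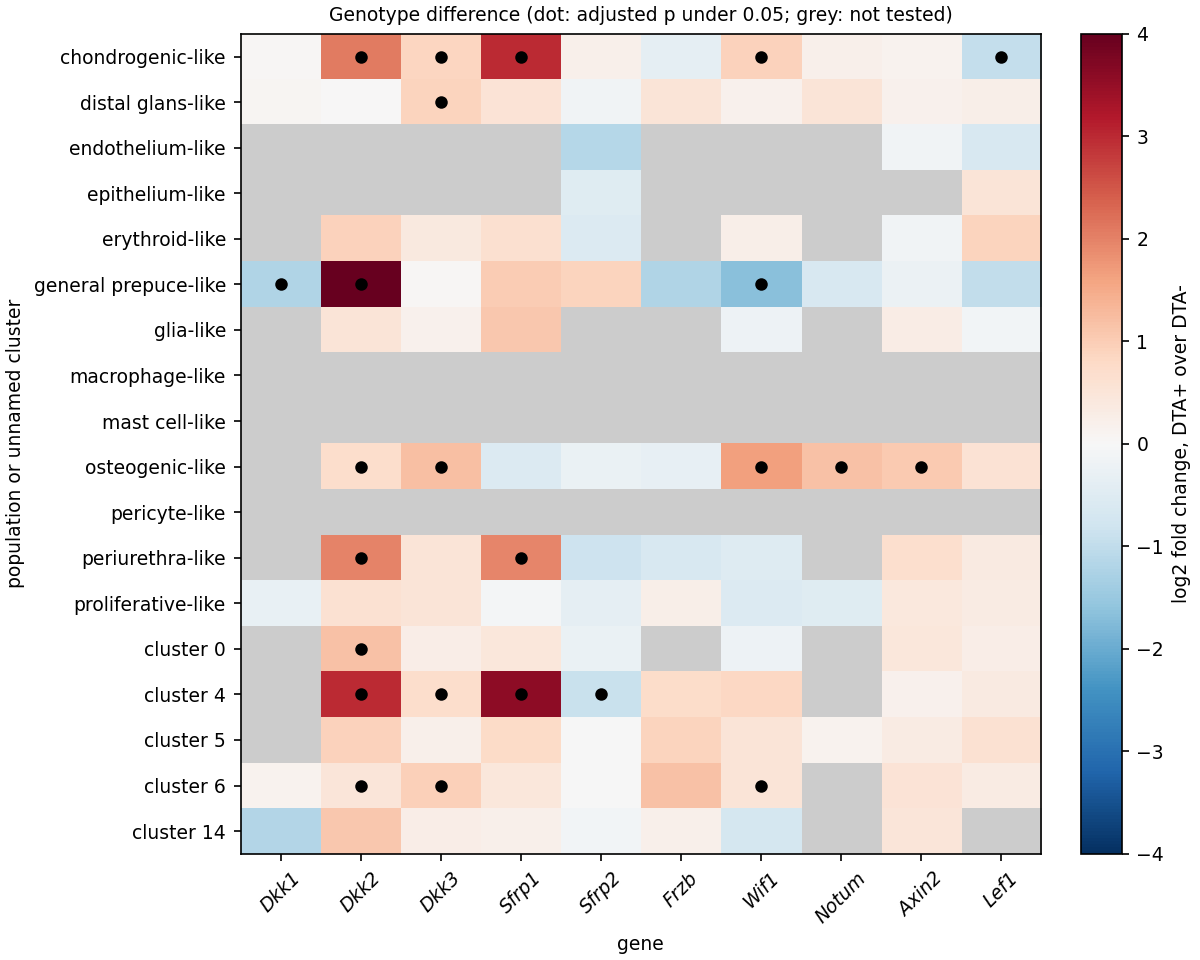
Fitted log2 fold change, DTA+ over DTA-, of the 10 genes (columns) in the 18 populations (rows), n = 2 libraries per genotype; dots mark the 24 pairs past the threshold and grey marks pairs not tested. The *Dkk2* and *Dkk3* columns are above 0 in each of their 13 tested populations, and the chondrogenic-like and osteogenic-like rows carry 5 dots each.

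Chondrogenic-like cells, named from *Sox9*, *Col2a1* and other cartilage genes, and osteogenic-like cells had the most calls. In chondrogenic-like cells 5 of the 10 genes were past the threshold, beside 8.7% of the 11061 features tested, and in osteogenic-like cells 5 of 9, beside 3.79%. The count was 4 of 8 genes in cluster 4 (11.5% of features), 3 of 9 in cluster 6 (10.5%), 3 of 10 in general prepuce-like cells (3.64%), 2 of 8 in periurethra-like cells (3.54%), 1 of 10 in distal glans-like cells (3.1%) and 1 of 7 in cluster 0 (2.5%). Chondrogenic markers did not separate the genotypes in chondrogenic-like cells, with summed levels of 1440 and 1600 against 1330 and 1460 CPM for a list of 8 genes, of which the late cartilage gene *Matn1* was at 0 in every library and *Acan* near 0. Other lists did. Erythroid marker RNA was lower in DTA+ there, at 2140 and 1480 against 1380 and 245 CPM, as was that of the osteogenic list (133 and 115 against 96.1 and 99 CPM). The general prepuce list (561 and 583 against 782 and 708 CPM) and the distal glans list (552 and 457 against 553 and 686 CPM) were higher, the latter by a narrow margin. The part of these lists in the differences was not tested.

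In the remaining populations, pooled as named, no gene of the 10 was past the threshold of edgeR's quasi-likelihood test. Percentages in parentheses are shares of all features past that threshold. Counts at an unadjusted p under 0.05 use another cutoff, and the matching share of all features is not given. Nothing is therefore read from those counts. Of the 10 genes tested in proliferative-like cells (0.215% of features called), 4 had an unadjusted p under 0.05, and DESeq2 and edgeR's likelihood ratio test called 0. These cells joined 2 clusters, and within cluster 8 alone *Dkk2* was past the threshold, at 135 and 137 against 209.8 and 302 CPM (0.88 ± 0.17), whereas cluster 15 was not, at 24.2 and 16.4 against 42.3 and 56.98 CPM (1.29 ± 0.29). Cluster 5 (0.208%) had 3 of 9 under 0.05, with 1 called by DESeq2 and 1 by the likelihood ratio test. Cluster 14 (0.7%) had 2 of 8, with 0 called by DESeq2 and 1 by the likelihood ratio test. Erythroid-like cells (0.298%) had 2 of 7 and glia-like cells (0.105%) 1 of 6, with 0 called by DESeq2 and by the likelihood ratio test. In endothelium-like cells (0.0177%) 3 genes were tested and in epithelium-like cells (0%) 2, and none of them reached an unadjusted p under 0.05 or was called by DESeq2 or the likelihood ratio test. In pericyte-like cells (0.0662%), macrophage-like cells (0%) and mast cell-like cells (0%) none of the 10 had enough UMIs to be tested.

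**Figure D3:**
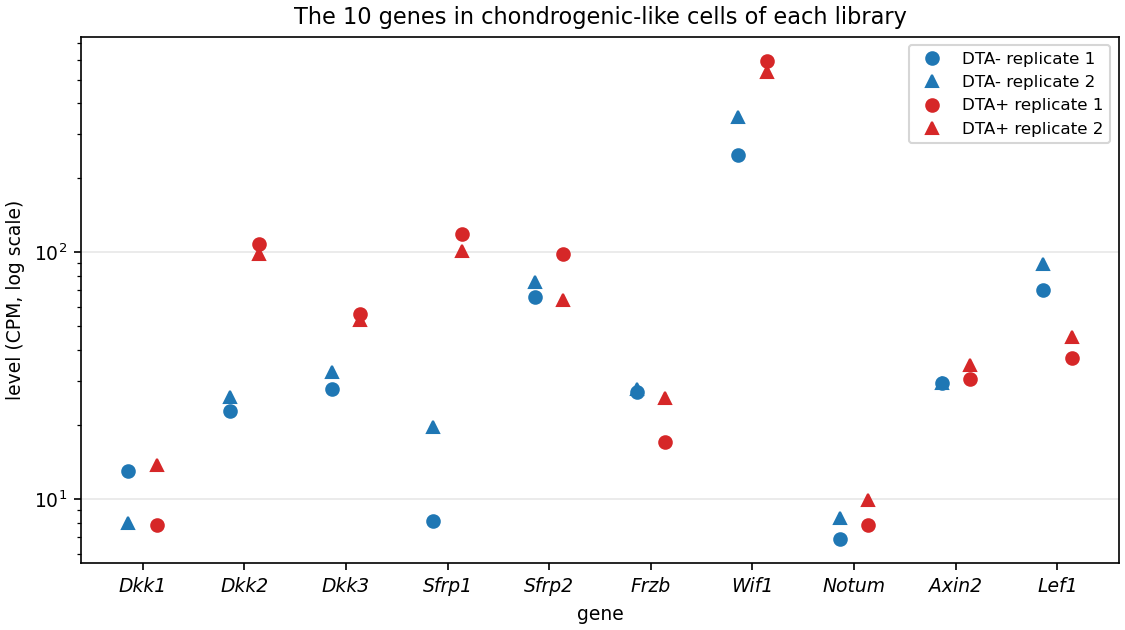
Levels (CPM, log scale) of the 10 genes in chondrogenic-like cells of each library, circles for replicate 1 and triangles for replicate 2. *Dkk2*, *Dkk3*, *Sfrp1* and *Wif1* of both DTA+ libraries lie above both DTA- libraries, *Lef1* lies below, and *Dkk1* overlaps.

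*Dkk2*, an LRP-binding antagonist, changed in the most populations. In periurethra-like cells, which surround the urethra, *Dkk2* stood at 164 and 122 against 545 and 579 CPM, DTA- against DTA+. The fitted log2 fold change was 1.97 ± 0.17, and the DTA+ level was the highest of any population tested. In chondrogenic-like cells it was 22.7 and 25.99 against 108 and 98.7 CPM (2.08 ± 0.19). The DTA+ libraries lay close together and well above both DTA- libraries. Cluster 4 had 11.98 and 19 against 115 and 126 CPM (2.995 ± 0.23). That value was 1.68 with no upper UMI limit and 1.73 at a resolution of 0.4, still past the threshold. The matched clusters of those runs were also the best match of cluster 14. Their overlap with cluster 4 (cells in both over cells in either) was 0.517 and 0.625. In cluster 4 the distal glans marker list was higher in DTA+ (340.0 and 262 against 522 and 540.0 CPM summed), and the smooth muscle (48.3 and 48.4 against 12.1 and 11.1 CPM) and subdermal prepuce lists (333 and 469 against 329 and 294 CPM) were lower. Further lists separated the genotypes in that cluster. Among them the periurethra list was higher (252 and 234 against 267 and 341 CPM) and the osteogenic list lower (75.2 and 77.7 against 61.8 and 53.0 CPM). The part of the marker lists in the cluster 4 differences of *Dkk2*, *Sfrp1* and the other genes was not tested.

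General prepuce-like cells had the largest fitted fold change of *Dkk2* among the populations tested, from a DTA- level near background, with 7.28 and 5.38 against 108 and 119.6 CPM (4.18 ± 0.24). This population joined 3 clusters whose shares differed between the genotypes. Cluster 3 held 360 and 720 DTA- cells and 848 and 327 DTA+ cells, cluster 13 held 80 and 9 against 275 and 645, and cluster 16 held 1 and 9 against 542 and 307. Within cluster 3, *Dkk2* was 2.64 and 4.23 against 19.6 and 13.04 CPM, past the threshold (2.17 ± 0.39). Cluster 13 had 25.5 and 58.9 against 187 and 172 CPM and was not tested, and cluster 16 had 246 and 167 CPM in DTA+ and 1 UMI in each DTA- library. The *Dkk2* level was thus lowest in cluster 3, which held most of the DTA- cells, and the pooled gap was wider than that inside cluster 3. The part of the cluster shares in the pooled gap was not tested. The pooled value was 2.15 with no upper UMI limit and 2.45 without the highest-scoring doublets, both past the threshold, and 2.03 at a resolution of 0.4, which was not. In these runs the general prepuce-like population was also the best match of the subdermal prepuce-like cells. It was thus not the same set of cells, with an overlap with the main population of 0.685, 0.685 and 0.564 in that order.

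Periurethra-like cells joined 2 clusters, and *Dkk2* was past the threshold in both. Cluster 10, marked by *Foxl2* and *Sall3*, had 90.6 and 65.05 against 569.5 and 476 CPM, and cluster 11, marked by the Hedgehog targets *Hhip* and *Gli1*, had 225 and 170.2 against 537 and 695 CPM. Periurethra markers overlapped between the genotypes (732 and 824 against 599 and 872 CPM summed). General prepuce markers were higher in DTA+ periurethra-like cells, with a summed level of 958 and 1040 against 2640 and 1360 CPM. So were the subdermal prepuce list (239 and 315 against 586 and 392 CPM) and the distal glans list (592 and 538 against 619 and 818 CPM). Erythroid marker RNA moved the other way (4000 and 2780 against 2750 and 353 CPM). So did the chondrogenic list (57.6 and 64.4 against 25.2 and 39.3 CPM). Among further lists the endothelium list was higher (16.1 and 14.3 against 27.8 and 29.5 CPM). The part of these lists was not tested. The higher general prepuce list was not particular to periurethra-like cells. In cluster 0 it was 2230 and 1800 against 3950 and 3220 CPM, and in cluster 6 521 and 608 against 925 and 678 CPM. In clusters 4 and 5 that list overlapped. The distal glans list was also higher in clusters 0 and 6, without overlap, whereas it overlapped in proliferative-like cells.

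Smaller *Dkk2* differences were seen in 3 more populations. Cluster 0 had 123 and 75.2 against 202 and 242 CPM (1.17 ± 0.21), and in osteogenic-like cells it was 141 and 139 against 203 and 249 CPM (0.701 ± 0.17). In cluster 6 it was 142 and 127 against 168 and 212 CPM (0.49 ± 0.16). The last pair of calls was lost in part of the alternatives, 6 of 15 in osteogenic-like cells and 10 of 17 in cluster 6. Among these were runs that left out 1 library, in which the fitted value rose or fell. In cluster 6 the call was lost without DTA- replicate 2 (0.41), DTA+ replicate 1 (0.66) or DTA+ replicate 2 (0.33), and also with another clustering seed (0.501). In osteogenic-like cells it was lost without DTA+ replicate 1 (0.83) or DTA+ replicate 2 (0.54), and the value was 0.31 at a resolution of 1.2.

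Distal glans-like cells, with the highest *Dkk2* level of DTA- libraries, did not follow. Their levels were 216 and 254 against 163 and 302 CPM, so the genotypes overlapped (0.004 ± 0.21). Cluster 5 (220.5 and 146 against 319 and 379 CPM, 0.93 ± 0.20) did not overlap but did not pass the threshold. Over the 13 populations tested the fitted *Dkk2* difference was above 0 in 13, and DTA+ lay wholly above DTA- in 11. Of all pairs of a feature and a population, 44.5% did not overlap, in either direction.

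**Figure D4:**
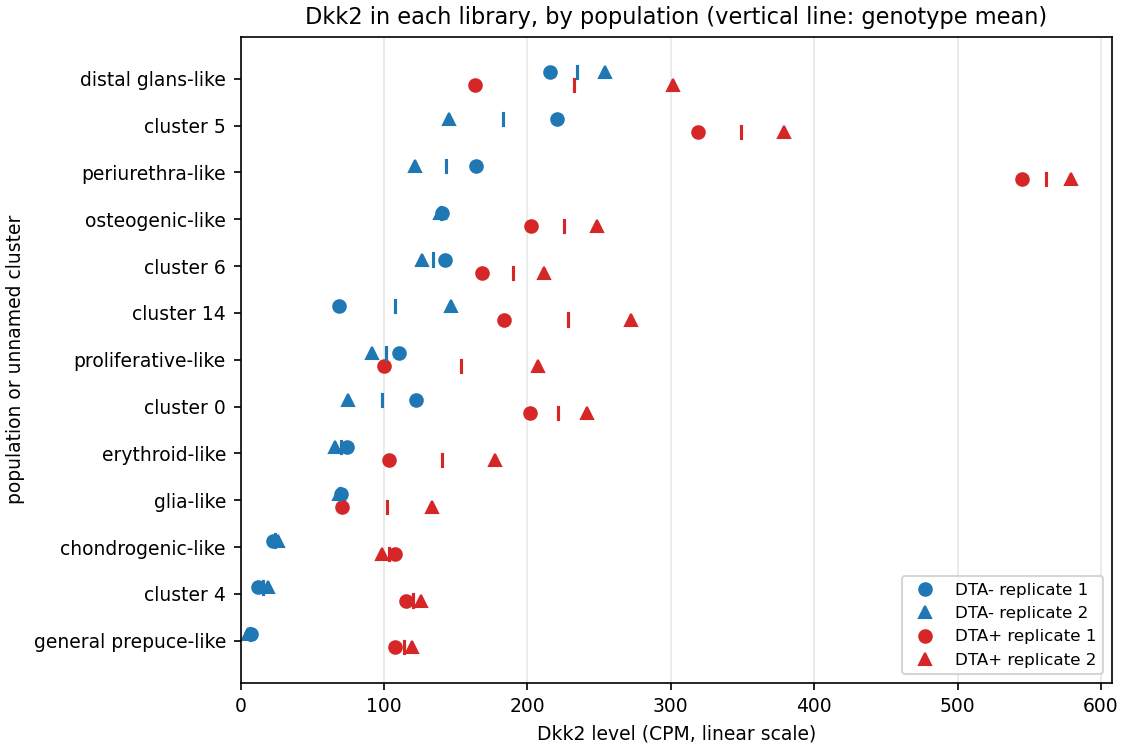
*Dkk2* level (CPM, linear scale) in each library for the 13 populations in which it was tested, ordered by the mean of the DTA- libraries; circles are replicate 1, triangles replicate 2 and vertical lines genotype means. Periurethra-like cells of DTA+ libraries (545 and 579 CPM) lie furthest to the right, and chondrogenic-like, cluster 4 and general prepuce-like cells, lowest in DTA-, show no overlap of the genotypes.

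The share of cells with at least 1 *Dkk2* UMI moved in the same way. It was 8.33% and 9.08% against 25.3% and 24.6% of chondrogenic-like cells, although DTA- cells were deeper (median 5185 and 4403 UMIs against 3174 and 3397). With every cell thinned to 1000 UMIs the shares were 2.03% and 3.19% against 11.4% and 8.75%. In periurethra-like cells they were 38.4% and 26.4% against 63.7% and 72.1%, and thinned 13.5% and 8.74% against 39.2% and 39.8%. Macrophage-like cells, which should lack the gene, gave 2.9% and 1.33% against 6.49% and 5.71% at median depths of 4443 to 5303 UMIs. DTA- general prepuce-like cells (2.72% and 1.9%) were at that background. Erythroid-like cells had more (23.7% and 17.1% against 26.3% and 37.5%). Erythroid-like cells also carried general prepuce marker RNA at 990.0 and 1110 against 2060 and 1260 CPM and distal glans marker RNA at 512 and 350.0 against 489 and 908 CPM, against 37.5 and 154 against 128 and 236 CPM and 37.5 and 78.4 against 20.9 and 103 CPM in macrophage-like cells.

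*Dkk3* differed by less, in 5 populations. Osteogenic-like cells had 50.4 and 36.5 against 130.4 and 84.3 CPM (1.201 ± 0.23). The values were 27.96 and 32.8 against 56.4 and 53.2 CPM in chondrogenic-like cells (0.85 ± 0.19) and 24.7 and 35.6 against 62.7 and 52.3 CPM in cluster 6 (0.94 ± 0.23). Distal glans-like cells, which joined clusters 1 and 9, had 17.9 and 24.9 against 31.9 and 43.2 CPM (0.88 ± 0.22) and cluster 4 33.1 and 26.5 against 45.2 and 53.03 CPM (0.71 ± 0.22). In cluster 1, the larger part of the distal glans-like cells, *Dkk3* overlapped and was not past the threshold (14.6 and 27.7 against 27.2 and 29.2 CPM, 0.46 ± 0.28), whereas cluster 9 was (23.1 and 17.5 against 43.8 and 67.9 CPM, 1.400 ± 0.28). *Dkk3* was also past it in cluster 11 alone of the periurethra-like cells (0.803 ± 0.22). DTA+ lay wholly above DTA- in each of the 5 populations as pooled, and each of the 5 calls was lost without some library. Without DTA+ replicate 1 the calls were lost in osteogenic-like cells (0.903), chondrogenic-like cells (0.81), cluster 6 (0.803) and cluster 4 (0.82). Without DTA+ replicate 2 they were lost in chondrogenic-like cells (0.89), distal glans-like cells (0.61) and cluster 4 (0.59). Cluster 6 (0.69) and distal glans-like cells (0.63) lost it without DTA- replicate 1, and cluster 4 (0.56) without DTA- replicate 2. At a resolution of 1.2 the value was 0.49 in osteogenic-like cells and 0.24 in cluster 4, neither past the threshold. Among all alternatives the call was lost in 8 of 17 for cluster 4 and 6 of 17 for distal glans-like cells. It was lost in 4 of 17 for cluster 6, 3 of 15 for osteogenic-like and 2 of 17 for chondrogenic-like cells. The sign was above 0 in 13 of 13 populations tested, and DTA+ lay wholly above DTA- in 8, beside 44.5% of all pairs without overlap in either direction.

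*Dkk1*, the best-known LRP antagonist, went the other way in general prepuce-like cells, at 68.7 and 43.8 against 22.97 and 24.97 CPM (-1.22 ± 0.24). Within cluster 3 the levels were 78.1 and 42.3 against 36.7 and 21.1 CPM, which was not past the threshold (-1.03 ± 0.32). Cluster 13 had 7.65 and 0 against 18.7 and 41.03 CPM, and cluster 16, which held few DTA- cells, had 0.928 and 1.496 CPM in DTA+. The genotypes did not overlap within cluster 3. The DTA- levels of cluster 13 rest on 3 and 0 UMIs and cannot show whether the lower value held there. The part of the cluster shares in the pooled value was not tested. The pooled call was lost without DTA- replicate 1 (-0.87). The difference was -0.07 at a resolution of 0.4, -0.07 with no upper UMI limit and -0.39 without the highest-scoring doublets, none of them past the threshold. In these runs the set of general prepuce-like cells differed, as given above with *Dkk2*. In distal glans-like cells, its highest population, *Dkk1* overlapped (87.2 and 42.8 against 62.4 and 78.7 CPM).

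*Sfrp1*, a Frizzled-related Wnt binder, was past the threshold in 3 populations, each with a low DTA- level. Chondrogenic-like cells had 8.11 and 19.6 against 118 and 102 CPM (2.98 ± 0.26), so that the DTA+ level passed the DTA- level of glia-like cells, its highest. Cluster 4, with the marker shifts given above, had 3.72 and 3.46 against 37.7 and 49.95 CPM (3.59 ± 0.33). That value was 1.81 with no upper UMI limit and 1.81 at a resolution of 0.4, still past the threshold, and 1.95 at a resolution of 1.2, where the call was lost. The overlap of the matched clusters with cluster 4 was 0.517, 0.625 and 0.529 in these runs. Periurethra-like cells had 13.97 and 11.97 against 58.2 and 43.4 CPM (1.94 ± 0.24).

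The 2 clusters of periurethra-like cells had different *Sfrp1* gaps, a comparison that was not tested. Cluster 11 had 3 and 0 *Sfrp1* UMIs in the DTA- libraries and 60 and 78 in the DTA+ libraries (1.97 and 0 against 88.3 and 47.3 CPM), and was past the threshold. Cluster 10 had 26.6 and 24.9 against 43.5 and 40.4 CPM and was not (0.67 ± 0.24). The genotypes did not overlap in either cluster.

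Other populations showed smaller gaps in *Sfrp1*. Glia-like cells had 74.3 and 89.7 against 142 and 209.7 CPM (1.08 ± 0.28) and distal glans-like cells 50.3 and 55.7 against 79.3 and 73.95 CPM (0.54 ± 0.16), and neither passed the threshold. Osteogenic-like cells were lower in DTA+, at 12.4 and 11.2 against 7.51 and 8.64 CPM (-0.54 ± 0.41). In sums over all cells *Sfrp1* was the only member of the 10 past the threshold, with 20.5 and 17.5 against 39.8 and 40.2 CPM (1.08 ± 0.13), beside 0.488% of 15977 features. In those sums more cells of a type and more RNA per cell cannot be told apart, and with no upper UMI limit the value (1.01) was not past the threshold.

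**Figure D5:**
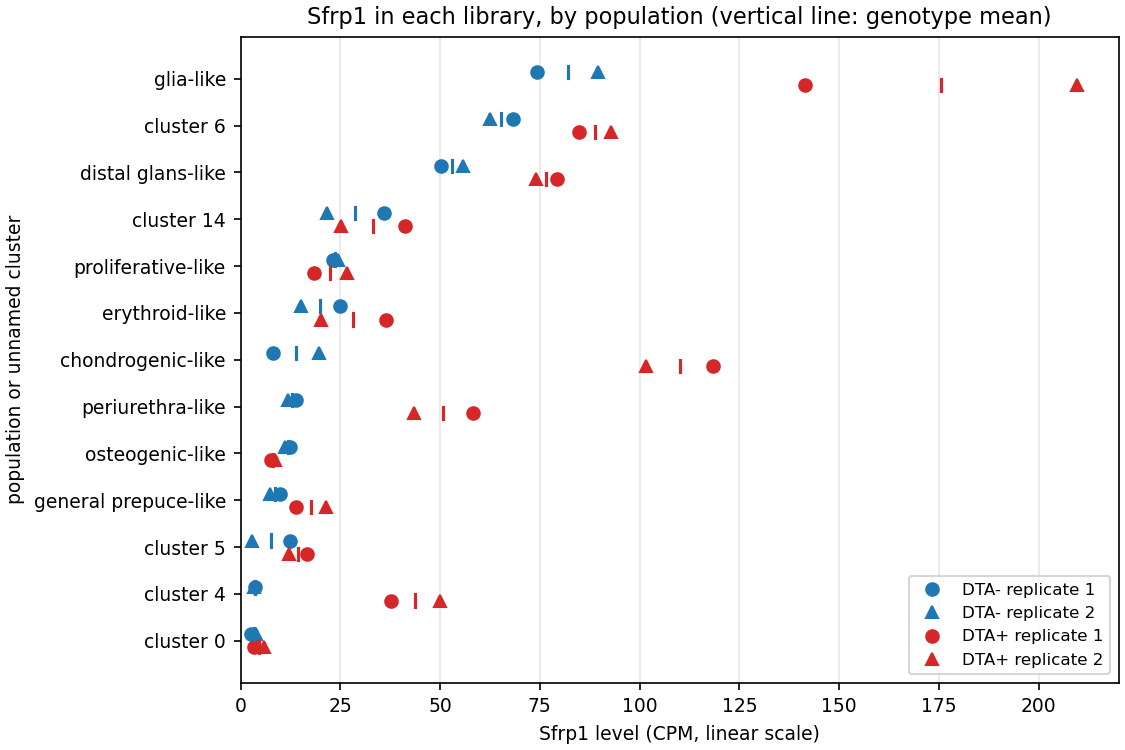
*Sfrp1* level (CPM, linear scale) in each library for the 13 populations in which it was tested, ordered by the mean of the DTA- libraries; circles are replicate 1, triangles replicate 2 and vertical lines genotype means. Chondrogenic-like cells moved from 8.11 and 19.6 CPM to 118 and 102 CPM, and glia-like cells lie furthest to the right.

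A *Sfrp1* UMI was found in 3.86% and 6.72% against 27.7% and 25.2% of chondrogenic-like cells, DTA- against DTA+. At 1000 UMIs per cell the shares were 0.407% and 1.85% against 8.71% and 7.94%. Macrophage-like cells had at most 2.86% without thinning. The DTA+ shares of chondrogenic-like cells were thus above that background in both libraries.

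*Sfrp2*, a relative of *Sfrp1* that also binds Wnt ligands, leaned down. In cluster 4 it was 886 and 1125 against 575 and 516 CPM (-0.88 ± 0.14). The value was -0.58 with no upper UMI limit, still past the threshold, and -0.48 at a resolution of 1.2, where the call was lost. The matched clusters of these runs overlapped only in part with cluster 4, as given for *Sfrp1*. Some of the marker lists that separated the genotypes in that cluster are given above with *Dkk2*. In periurethra-like cells *Sfrp2* was 1003 and 1139 against 860.3 and 361 CPM, with a wide gap between the DTA+ libraries (-0.81 ± 0.30). Cluster 11 alone, at 887 and 1043 against 544 and 291 CPM, passed the threshold (-1.27 ± 0.21). General prepuce-like cells pooled gave 155 and 103 against 219.7 and 262 CPM (0.91 ± 0.21), but within cluster 3, which held most of their DTA- cells, the genotypes overlapped (65.4 and 88.5 against 80.4 and 80.1 CPM, -0.02 ± 0.21). Cluster 13, which held more DTA+ cells, had 553 and 884 against 558 and 419 CPM. The fitted difference was below 0 in 12 of 14 populations. DTA+ lay wholly below DTA- in 8, beside 44.5% of all pairs without overlap in either direction.

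*Frzb*, the third Frizzled-related gene, had no pair past the threshold among the 10 tested with edgeR's quasi-likelihood test. An unadjusted p under 0.05 was reached in 5, a count given without the matching share of all features and not read further. DESeq2 called 0 of the 10 and the likelihood ratio test 1. In periurethra-like cells, where it was highest, the levels were 109 and 96.2 against 41.2 and 85.7 CPM (-0.66 ± 0.27). Cluster 5 leaned up, at 22.8 and 35.02 against 53.3 and 51.9 CPM (0.89 ± 0.25). Its differences were above 0 in 6 populations and below 0 in 4.

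*Wif1*, which encodes a secreted Wnt-binding protein, differed in 4 populations and in both directions. In chondrogenic-like cells it was 248 and 353 against 596 and 537 CPM (0.92 ± 0.16), a call kept in every alternative run. The share of cells with a UMI was 48.8% and 54.3% against 62.5% and 64.6%, and thinned 17.1% and 23% against 36.3% and 34.7%, against at most 2.9% of macrophage-like cells. Cluster 6, its highest population, had 506 and 592 against 915 and 657 CPM (0.52 ± 0.14). There 5 of 17 alternatives lost the call, among them those without DTA- replicate 1 (0.401) or DTA+ replicate 1 (0.27). Osteogenic-like cells had 19.9 and 16.8 against 88.2 and 38.9 CPM (1.65 ± 0.34), with a wide gap between the DTA+ libraries, and the value became 1.04 without DTA+ replicate 1 and was no longer past the threshold.

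In general prepuce-like cells *Wif1* was lower in DTA+, at 77.3 and 101 against 38.6 and 16.6 CPM (-1.69 ± 0.35). The call was lost without DTA- replicate 1 (-1.86) or DTA- replicate 2 (-1.48). The value was -0.59 at a resolution of 0.4, -0.55 with no upper UMI limit and -0.91 without the highest-scoring doublets, all short of the threshold. In the latter runs the set of general prepuce-like cells differed, as given above with *Dkk2*. Within cluster 3 *Wif1* was 89.2 and 97.2 against 66.2 and 40.98 CPM and was not past it (-0.83 ± 0.25). In cluster 11 of the periurethra-like cells it was 30.1 and 48.4 against 20.6 and 11.5 CPM and was past it (-1.43 ± 0.34). Cluster 10, the other cluster of those cells, leaned up and was not past it (9.34 and 12.4 against 14.8 and 26.75 CPM, 0.947 ± 0.401). The genotypes did not overlap in either cluster.

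*Notum*, which encodes the Wnt deacylase, was past the threshold in 1 of 6 populations. Osteogenic-like cells had 40.5 and 22.4 against 99.5 and 59.6 CPM (1.16 ± 0.27), with both DTA+ libraries above both DTA- libraries. The value was 0.82 without DTA+ replicate 1, 1.15 with another clustering seed and 0.27 at a resolution of 1.2, and the call was lost each time. Without DTA- replicate 1 it was 1.75 and was kept. In cluster 5, where it was highest, the genotypes overlapped (108 and 51.6 against 72.4 and 103 CPM, 0.13 ± 0.29), and 28% and 13.5% against 16.2% and 24.1% of cells had a UMI.

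Of the targets, *Axin2* passed the threshold in 1 of 14 populations, osteogenic-like cells, at 32.99 and 49.1 against 81.6 and 80.4 CPM (1.06 ± 0.22). That call was lost without DTA- replicate 1 (0.72) or DTA+ replicate 1 (1.04), with another clustering seed (0.77) and at a resolution of 1.2 (0.47). Its differences in the 14 populations ran from -0.24 to 1.06 on the log2 scale, above 0 in 11. DTA+ lay wholly above DTA- in 10, beside 44.5% of all pairs without overlap in either direction. In periurethra-like cells, where *Dkk2* and *Sfrp1* were higher in DTA+, *Axin2* was 45.05 and 47.9 against 70.02 and 78.2 CPM (0.68 ± 0.17). In chondrogenic-like cells it was 29.6 and 29.6 against 30.6 and 34.9 CPM (0.15 ± 0.20), and in general prepuce-like cells it was 95.1 and 90.2 against 88.3 and 68.4 CPM (-0.24 ± 0.19). Within cluster 3, which held most DTA- cells of that population, the direction turned, at 105 and 85.5 against 118 and 146 CPM (0.398 ± 0.20), with both DTA+ libraries above both DTA- libraries. Clusters 13 and 16 held mostly DTA+ cells, with 33.9 and 35.6 CPM in cluster 13 and 66.8 and 68.8 CPM in cluster 16 of the DTA+ libraries. A difference that misses the threshold does not show that *Axin2* was equal.

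*Lef1*, target and nuclear effector, was lower in DTA+ in chondrogenic-like cells, its highest population, at 70.1 and 89.2 against 37.4 and 45.1 CPM (-0.95 ± 0.19). A *Lef1* UMI was found in 25.6% and 28.1% against 10.8% and 14.4% of these cells, and thinned in 5.89% and 7.56% against 2.94% and 4.71%, against at most 1.45% of macrophage-like cells. The call was lost without DTA+ replicate 1 (-0.82). In 10 of its 14 tested populations the fitted *Lef1* difference was above 0, among them periurethra-like cells (60.4 and 40.5 against 62.3 and 67.2 CPM, 0.35 ± 0.21).

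Osteogenic-like cells carried 5 of the 24 calls, and all 5 (*Dkk2*, *Dkk3*, *Wif1*, *Notum* and *Axin2*) were lost without DTA+ replicate 1 (0.83, 0.903, 1.04, 0.82 and 1.04, in that order), with cells thinned and at a resolution of 1.2. At that resolution, here and above, the match was an unnamed cluster that overlapped with these cells in part (0.597). At a resolution of 0.4 (0.475) and with no upper UMI limit (0.336) the best match was under the overlap of 0.5 needed. Those runs therefore gave no value for these cells. The osteogenic marker list, 7 genes of which the mature bone genes *Spp1* and *Mmp13* were at 0 in every library and *Ibsp* near 0, was lower in DTA+ cells of this population (626 and 628 against 343 and 471 CPM summed), and the general prepuce list was higher (752 and 569 against 1520 and 1020 CPM). Further lists separated the genotypes there. Among them the distal glans (968 and 761 against 1070 and 1310 CPM) and smooth muscle lists (48.6 and 61.7 against 109 and 73.0 CPM) were higher. The periurethra and proliferative lists were higher too, and the skeletal muscle list was lower (3.11 and 4.21 against 0 and 0 CPM). The part of these lists in the 5 differences was not tested.

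Whether the genotype difference itself differed between populations was asked for chondrogenic-like against periurethra-like and distal glans-like cells, in a model with a term for each library. The 10 genes were chosen by these same values, so the differences are a description. Against periurethra-like cells 3.06% of 11910 features were past the threshold, and of the 10 genes *Wif1* (difference of log2 fold changes 1.43 ± 0.21), *Sfrp2* (1.07 ± 0.18) and *Lef1* (-1.29 ± 0.24) were. *Dkk2* (0.10 ± 0.20) and *Sfrp1* (1.09 ± 0.33) were not. For *Wif1* the periurethra-like value pools clusters 10 and 11, which leaned in opposite directions, as given above. *Lef1* was lost without DTA- replicate 2 (-0.87). Against distal glans-like cells 1.89% of 11838 features were past it, with *Sfrp1* (2.48 ± 0.24), *Dkk2* (2.13 ± 0.24) and *Lef1* (-1.14 ± 0.18) among them. These 3 stayed past the threshold in all 6 alternatives run.

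The other genes of the pathway were taken from a list of 81 ordered by role, of which 69 were tested in at least 1 population. The list was made with earlier results of these data known. Genes named below were picked by size of change among those past the threshold. Their adjusted p-values therefore describe selected genes and give no independent support. Of 722 pairs of a gene and a population, 52 passed (39 higher and 13 lower in DTA+), and the median log2 fold change was 0.13. Over all features the share past the threshold was 3.44%, with 1.72% higher and 1.72% lower. Ligands and the proteins that release them had 19 of 148 pairs past the threshold (17 higher and 2 lower), and receptors 11 of 188 (10 higher and 1 lower). Other inhibitors had 11 of 54 (7 higher and 4 lower) and other targets 11 of 109 (5 higher and 6 lower). Of the transduction genes, which include *Ctnnb1*, *Apc* and *Gsk3b*, 0 of 223 pairs passed in edgeR's quasi-likelihood test. DESeq2 called 0 and the likelihood ratio test 1. An unadjusted p under 0.05 was reached in 15, a count given without the matching share of all features and not read further. The ligand *Wnt5a* accounted for 7 of the 19 ligand calls.

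*Wnt5a*, a ligand of β-catenin-independent signaling, rose in DTA+ in cluster 6 (408 ± 44.2 against 696 ± 50.2 CPM, log2 fold change 0.77, adjusted p = 0.000216 in edgeR, means ± SD, n = 2). It also rose in distal glans-like cells (1024 ± 66.4 against 1434 ± 73.9 CPM, log2 fold change 0.49, adjusted p = 0.0103 in edgeR), its highest of these, and in chondrogenic-like cells (268 ± 22.5 against 442 ± 77.3 CPM, log2 fold change 0.72, adjusted p = 0.00524 in edgeR). The last call was lost without DTA+ replicate 2 (0.53). *Wnt2* rose in periurethra-like cells (10.6 ± 0.65 against 118 ± 72.7 CPM, log2 fold change 3.45, adjusted p = 0.00141 in edgeR). From a low DTA- level it also rose in general prepuce-like cells (6.97 ± 5.58 against 77.6 ± 9.002 CPM, log2 fold change 3.57, adjusted p = 0.00244 in edgeR), where it turned in sign in 3 alternatives. It fell in cluster 4 (127 ± 1.41 against 70.2 ± 9.45 CPM, log2 fold change -0.86, adjusted p = 0.00442 in edgeR), a call lost without DTA+ replicate 2 (-0.73) and turned in sign at a resolution of 1.2 (0.596). The R-spondin *Rspo3* rose in cluster 4 (24.3 ± 8.301 against 64.6 ± 2.42 CPM, log2 fold change 1.37, adjusted p = 0.00123 in edgeR), where the value was -0.06 with no upper UMI limit.

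Among the other inhibitors, *Apcdd1*, a membrane inhibitor, rose in distal glans-like cells (210.4 ± 14.2 against 346 ± 34.6 CPM, log2 fold change 0.72, adjusted p = 0.00802 in edgeR), a call lost without DTA+ replicate 2 (0.61). *Sostdc1*, a secreted BMP and Wnt antagonist, was lower in 4 populations and higher in 1 of the 14 tested. It fell in general prepuce-like cells (314 ± 14.3 against 136 ± 5.17 CPM, log2 fold change -1.21, adjusted p = 0.00432 in edgeR) and in erythroid-like cells (411 ± 125 against 139.6 ± 20.4 CPM, log2 fold change -1.58, adjusted p = 0.0033 in edgeR). The latter also carried general prepuce and distal glans marker RNA, as given with *Dkk2*, and the source of their *Sostdc1* was not tested. *Sostdc1* also fell in cluster 4 (192 ± 61.9 against 108 ± 19.7 CPM, log2 fold change -0.83, adjusted p = 0.0158 in edgeR), a call lost without DTA- replicate 1 (-0.45) or DTA+ replicate 1 (-0.66), and in cluster 0, which it leads (2314 ± 532 against 1326 ± 338 CPM, log2 fold change -0.803, adjusted p = 0.0391 in edgeR), a call lost without DTA+ replicate 1 (-0.56). In sums over all cells it fell too (456 ± 21.1 against 243 ± 28.8 CPM, log2 fold change -0.91, adjusted p = 0.0494 in edgeR), a call lost without DTA- replicate 2 (-0.96) or DTA+ replicate 1 (-0.796). It rose in distal glans-like cells (40.3 ± 25.2 against 91.04 ± 9.51 CPM, log2 fold change 1.099, adjusted p = 0.0411 in edgeR), where the value was 2.002 without DTA- replicate 1 and 0.63 without DTA- replicate 2, and where the call was lost with another clustering seed (0.85). *Sfrp4*, a Frizzled-related gene outside the 10, was below the level set for naming and was chosen after its values were seen. In chondrogenic-like cells it had 0.811 and 2.399 against 22.4 and 26.8 CPM (log2 fold change 3.895), which is given as a description.

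Of the 11 calls among other targets, 6 were lower in DTA+. In periurethra-like cells 3 targets passed, 2 lower and 1 higher. The Wnt target *Lgr5*, an R-spondin receptor, fell (64.7 ± 1.6 against 24.7 ± 2.92 CPM, log2 fold change -1.37, adjusted p = 0.00259 in edgeR), and so did the transcription factor *Sp5* (40.5 ± 3.92 against 10.9 ± 8.14 CPM, log2 fold change -1.76, adjusted p = 0.0212 in edgeR). The *Sp5* call was lost without DTA- replicate 1 (-1.86) or DTA- replicate 2 (-1.67), and without DTA+ replicate 2 the value was -2.96. *Tnfrsf19*, a receptor gene of the TNF family, rose in the same cells (15.98 ± 3.08 against 32.7 ± 3.35 CPM, log2 fold change 1.03, adjusted p = 0.0375 in edgeR), a call lost without DTA- replicate 1 (1.25), DTA- replicate 2 (0.85) or DTA+ replicate 2 (0.904). The cyclin gene *Ccnd1* rose in osteogenic-like cells (149.8 ± 35.5 against 344 ± 103 CPM, log2 fold change 1.16, adjusted p = 0.00183 in edgeR), and so did the feedback gene *Nkd2* (79.7 ± 17.6 against 209 ± 94.5 CPM, log2 fold change 1.31, adjusted p = 0.00307 in edgeR). Both calls were lost without DTA+ replicate 1 (0.83 and 0.797), as were those of the 10 genes in these cells. General prepuce-like cells had lower *Sp5* (41.7 ± 10.5 against 14.3 ± 4.62 CPM, log2 fold change -1.52, adjusted p = 0.0243 in edgeR). *Tcf7* was lower there too (37.25 ± 4.43 against 14.6 ± 6.51 CPM, log2 fold change -1.35, adjusted p = 0.0492 in edgeR). Some alternatives lost each call, with values up to -0.219 for *Sp5* and -0.117 for *Tcf7*. As given with *Dkk2*, the general prepuce-like population joined clusters whose shares differed between the genotypes. Levels inside those clusters are not given for *Sp5*, *Tcf7*, *Wnt2* or *Sostdc1*. The part of the shares in these pooled differences was not tested.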

How the data were processed

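The authors deposited UMI counts per gene and cell from Cell Ranger (4.0.0 in the submitters' processing notes) against mm10 with a *tdTomato* sequence, for 4 libraries of 11343 to 12580 barcodes and 50779551 to 73577028 UMIs. Cells with over 1000 and under 7500 UMIs, at most 25% mitochondrial, 25% Hba and 50% Hbb UMIs were kept. Cells were clustered in Seurat 5.3.0 (30 principal components of 2000 variable genes without Wnt genes, resolution 0.8, seed 0, single thread), and another seed was added as an alternative after the clusters were seen to change with numerical settings. A cluster was named from at least 3 enriched markers. Scrublet's automatic threshold marked 0 doublets, so leaving out the highest scores was run as an alternative.

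Counts were summed per library and population (at least 20 cells in each) and tested with edgeR 4.0.16 (quasi-likelihood, TMM scaling, filterByExpr, Benjamini-Hochberg adjustment per population, threshold 0.05), since the sums are counts over 2 libraries per genotype. The study's methods name likelihood ratio tests, which were run as an alternative, as were DESeq2 1.42.0 and other filters, scalings, clusterings and depths. Standard errors are the fold change over the square root of F. An exact permutation test of 2 against 2 libraries cannot go below p = 0.333. The fits were run on simulated data first, with a single fixed dispersion and with libraries and populations drawn independently. Those runs cannot show how the fits behave on 2 real libraries per genotype.

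The 10 genes and the lists were chosen with earlier results of these data known. Other pathway genes were named where their mean level was at least 20 CPM, at most 3 higher and 3 lower per population by size of change. Promoter windows are RefSeq's.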

Additional observations from a re-analysis of the deposited data

Results flagged for a closer look

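The genotype difference of some genes differed between populations, as fitted in a model with a term for each library. The 10 genes were chosen by the same levels by genotype and population, so these differences are a description and give no independent support. Between chondrogenic-like and periurethra-like cells the log2 fold changes differed by 1.073 for *Sfrp2*, by -1.286 for *Lef1* and by 1.433 for *Wif1*. Within the periurethra-like cells *Wif1* leaned up in cluster 10 and was lower in DTA+ in cluster 11. *Lef1* was lower in DTA+ chondrogenic-like cells, and its fitted difference in periurethra-like cells was above 0. Between chondrogenic-like and distal glans-like cells they differed by -1.144 for *Lef1*, by 2.131 for *Dkk2* and by 2.479 for *Sfrp1*. *Dkk2* and *Sfrp1* thus had large fitted fold changes in chondrogenic-like cells and small ones in distal glans-like cells, where both genes were well expressed in DTA-.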

How the results depend on the processing

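Of 410 alternative values for the 25 differences of the 10 genes past the threshold, 336 kept direction and side of the threshold, 74 lost the call and 0 reversed. *Dkk2* in chondrogenic-like and periurethra-like cells and clusters 0 and 4, *Sfrp1* in chondrogenic-like and periurethra-like cells and *Wif1* in chondrogenic-like cells kept the call in every alternative run. Of 516 values for the other pathway genes 421 kept it, 90 lost it and 5 reversed. The reversed values were *Rspo3* in cluster 4 with no upper UMI limit (-0.058), *Wnt2* in cluster 4 at a resolution of 1.2 (0.596), and *Wnt2* in general prepuce-like cells with no upper UMI limit (-0.016), at a resolution of 0.4 (-1.866) and without the highest-scoring doublets (-0.034). In those runs the general prepuce-like population was also the best match of the subdermal prepuce-like cells. The clusters matched to cluster 4 overlapped with it in part (0.517 with no upper UMI limit and 0.529 at a resolution of 1.2). The part of these changed sets of cells in the reversals was not tested. The counts of calls that follow for the 10 genes and the other pathway genes lack the pairs tested in each run. They also lack the share of all features called in each run. Both can differ between runs, so nothing is read from changes in these counts. The 24 calls of the 10 genes became 15 at a resolution of 1.2, 22 with another clustering seed (chosen after seeing the data) and 21 to 27 without 1 library. The 52 calls of the other pathway genes became 29 with DESeq2, 84 with no filter on low counts, 26 with cells thinned, 34 at a resolution of 1.2, 51 with another seed and 42 to 67 without 1 library. In sums over all cells 78 features were called, against 552 with DESeq2, 658 with the likelihood ratio test, 659 with no filter, 21 with no upper UMI limit and 90 to 264 without 1 library (176 without DTA- replicate 1, 264 without DTA+ replicate 1 and 203 without DTA+ replicate 2). Against periurethra-like cells 364 features differed in their genotype difference, 66 with no term for the library and 159 to 507 without 1 library (159 without DTA- replicate 2). Without that term *Sfrp2* (1.01), *Lef1* (-1.30) and *Wif1* (1.44) were no longer past the threshold. Against distal glans-like cells these counts were 224, 45 and 153 to 265. Of 20 population shares 3 were called, and 1 to 3 without 1 library. The population with the highest DTA- level was the same for all 10 genes with cells thinned, for 9 without DTA- replicate 1 and for 7 without DTA- replicate 2. Same-numbered libraries did not deviate together. Over all cells the difference between the DTA- replicates ran opposite to that between the DTA+ replicates (r = -0.234). DTA- replicate 1 thus deviated more with DTA+ replicate 2. This cannot show whether any libraries shared a litter or batch. A replicate block gave 29, 66 and 335 calls for the 10 genes, the other pathway genes and all cells. The crossed pairing, chosen after seeing the data, gave 39, 93 and 1668. With 2 libraries per genotype, low genes such as *Notum* outside cluster 5 were limited by depth.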
